A study of Caenorhabditis elegans with 4 samples.

Results

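Chromosome V is the longest chromosome of Caenorhabditis elegans, and 451 of the 2769 peaks in the combined LIN-13 ChIP-seq list lay on it. These 451 peaks were taken by chromosome name alone, with no cut on a measured value. Earlier results of these data were known when the chromosome and its zones were chosen. All samples came from L4 (the fourth larval stage) hermaphrodites of strain OP49, which were fed bacteria at 20 °C. The strain carries the mutation unc119(ed3) and the transgene wgIs49, which was brought in by bombardment. That transgene holds lin-13 fused to the tags TY1, EGFP and FLAG, and unc119 as its rescue marker. The samples were 2 LIN-13 ChIP samples, precipitated with an antibody against GFP, and 2 input DNA samples from the same kind of extract. Every sample carried the transgene, and no strain without the tag was used here. No label tells if the 2 replicates were separate cultures, or which cells of the whole animals gave the signal.

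The zinc-finger protein LIN-13 belongs to the class B genes of the synthetic Multivulva network and is known for restraining vulval fates together with the retinoblastoma-like protein LIN-35. It also acts with HPL-2, a heterochromatin protein of the HP1 family, and with LIN-61, a reader of methylated histone H3. Worm chromosomes are holocentric, so they have no single centromere, and their arms differ from their centres. The arms recombine more and hold more repeats and repressive histone marks, and the centres hold more essential genes. Chromosome V carries many of the large families of chemoreceptor genes. The genes of the transgene, lin-13 and unc-119, lie on chromosome III and not on V.

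The 3 deposited lists hold peaks called by PeakSeq on build WormBase WS180. On chromosome V the replicate 1 list held 202 peaks and the replicate 2 list 122, of 1309 and 734 in all. A peak carries a position and a q-value only, so read depth is unknown and no fold over input can be given. Strength is given here as −log10 q, and the authors' lists end at different q-values (0.000148 in replicate 1, 0.000102 in replicate 2, and 0.000238 in the combined list). Genes and sequences under the peaks were not analysed here, because no annotation or genome of build WS180 was used. Peaks of 1 list share their library and lie in groups, so they are not replicates, and no p-value was computed. Intervals in brackets are 95% intervals that cover counting error only and treat peaks as independent.

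Chromosome V held fewer LIN-13 peaks per length than the other autosomes together, and its left arm was the sparsest of its zones. Chromosome lengths are lower bounds, set by the last base of any peak in the 3 lists, and come to 20.9 Mb for V. The outer 25% at each end were called arms and the middle 50% the centre, which puts the left arm of V up to 5.22 Mb and the right arm from 15.65 Mb. The whole chromosome had 21.6 peaks per Mb (19.7 to 23.7), against 31.6 (30.2 to 33.0) over chromosomes I to IV. That is a density ratio of 0.685 (0.617 to 0.759). Chromosome III, with 50.2 peaks per Mb, weighs on the second value, and against I, II and IV the ratio was 0.825 (0.740 to 0.920). In the combined list V stood next to chromosome I, at 20.4 peaks per Mb, and their ratio was 1.06 (0.916 to 1.23). The replicate lists put V above I, with a ratio of 1.40 (1.10 to 1.79) in replicate 1 and 2.45 (1.68 to 3.66) in replicate 2. Against I, II and IV together replicate 1 gave a ratio of 0.845 (0.715 to 0.994) and replicate 2 one of 0.951 (0.764 to 1.18), so without III the lower density of V is within counting error in replicate 2.

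Within chromosome V the left arm held 68 peaks, the right arm 118 and the centre 265. These counts are 13 peaks per Mb in the left arm (10.1 to 16.5), 22.6 in the right arm (18.7 to 27.1) and 25.4 in the centre (22.4 to 28.7). The left arm had 0.576 times the density of the right arm (0.421 to 0.783) and 0.513 times that of the centre (0.387 to 0.672). The right arm had 0.891 times the density of the centre (0.711 to 1.11), so their difference is within counting error. In the combined list the low density of the arms of V as a whole, at 0.702 times the centre (0.579 to 0.850), therefore lay mostly in 1 arm.

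On the other autosomes arms and centre were closer to each other. The ratio of arms to centre was 0.919 (0.729 to 1.16) on chromosome I, 1.12 (0.933 to 1.36) on II, 1.14 (0.978 to 1.33) on III and 0.976 (0.813 to 1.17) on IV. In the combined list the intervals of these 4 ratios all include 1, but single arms differed there too. The ratio of left to right arm was 1.45 (1.18 to 1.80) on III and 1.37 (1.05 to 1.78) on IV. On I it was 1.01 (0.724 to 1.42) and on II 0.781 (0.601 to 1.01). The left arm of III had 1.35 times the density of its centre (1.13 to 1.61). The right arm of II had 1.26 times that of its centre (1.01 to 1.57). In replicate 2 the ratio of arms to centre on II was 1.58 (1.09 to 2.32). In the combined list the ratio of arms to centre on V was 0.665 times that over I to IV together (0.540 to 0.818, Wald interval on the log scale). It was 0.764 times that on I (0.570 to 1.02), the nearest of the 4. By zone, against I to IV together, the left arm differed and the right arm did not beyond its interval. The ratio of left arm to centre was 0.452 times that over I to IV (0.339 to 0.602), while the ratio of right arm to centre was 0.913 times theirs (0.715 to 1.16). Taken singly, the ratio of right arm to centre on V was 0.705 times that on II (0.520 to 0.956). Against I, III and IV the intervals of this value include 1. In the combined list the left arm of V also had a lower density than every other autosomal left arm, with 0.664 times that of I (0.470 to 0.935), 0.465 times that of II (0.338 to 0.636), 0.206 times that of III (0.154 to 0.271) and 0.413 times that of IV (0.304 to 0.556). Outside the left arm the differences were smaller. Against chromosomes I to IV together, the ratio was 0.374 (0.286 to 0.482) for the left arm, 0.756 (0.612 to 0.927) for the right arm and 0.828 (0.720 to 0.95) for the centre. The right arm of V had 0.630 times the density of that of II (0.488 to 0.812) and 0.519 times that of III (0.405 to 0.665), and its ratios to I and IV had intervals that include 1. Against chromosomes I, II and IV together, the ratio was 0.488 (0.370 to 0.636) for the left arm, 0.869 (0.697 to 1.08) for the right arm and 0.976 (0.842 to 1.13) for the centre.

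Both replicate lists gave the same order of the 3 zones. In replicate 1 the left arm of V held 29 peaks, the right arm 48 and the centre 125, which is 5.56, 9.20 and 12 peaks per Mb. In replicate 2 they held 17, 26 and 79 peaks, or 3.26, 4.99 and 7.57 per Mb. The ratio of left arm to centre was 0.464 in replicate 1 (0.299 to 0.699) and 0.430 in replicate 2 (0.239 to 0.733). The ratio of left to right arm was 0.604 in replicate 1 (0.367 to 0.978) and 0.654 in replicate 2 (0.333 to 1.25), and the second interval includes 1. Set against chromosomes I to IV, the ratio of left arm to centre on V was 0.388 times theirs in replicate 1 (0.252 to 0.597) and 0.377 times in replicate 2 (0.214 to 0.664). For the right arm these values were 0.738 (0.510 to 1.07) and 0.581 (0.355 to 0.95), and the second interval lies below 1. Against II alone the right-arm values were 0.529 (0.338 to 0.828) and 0.316 (0.174 to 0.572), and both intervals lie below 1. Within V itself the ratio of right arm to centre was 0.768 in replicate 1 (0.539 to 1.08). In replicate 2 it was 0.658 (0.405 to 1.04), and both intervals include 1. Against the left arm of chromosome I alone, the density of the left arm of V was 0.722 times in replicate 1 (0.417 to 1.25) and 1.12 times in replicate 2 (0.493 to 2.64), so the lower density than on I seen in the combined list was not found beyond counting error in either replicate list and its direction turned in replicate 2. In the centre, the ratio of V to chromosomes I to IV was 0.846 in replicate 1 (0.688 to 1.03) and 1 in replicate 2 (0.765 to 1.30). These values depend on chromosome III. Against I, II and IV the centre of V had 1.11 times the density in replicate 1 (0.893 to 1.39) and 1.37 times in replicate 2 (1.02 to 1.83).

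**Figure D1:**
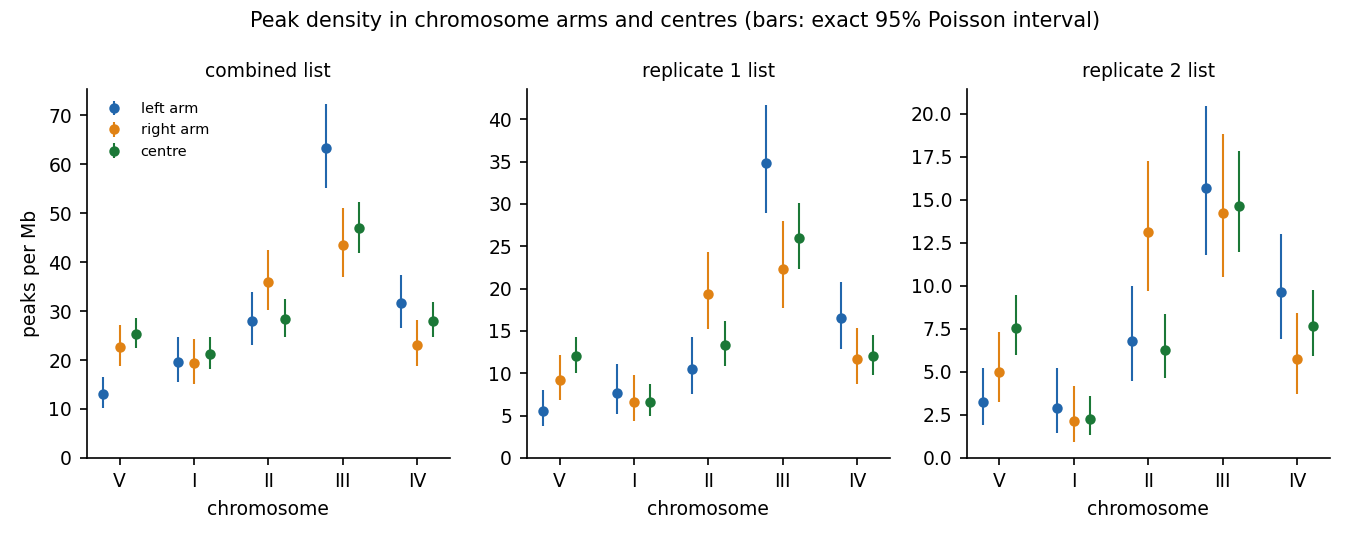
Peaks per Mb (y axis) in the left arm, right arm and centre of chromosomes V, I, II, III and IV (x axis), with 1 panel per list. Points are densities and bars are exact 95% Poisson intervals. On V the left arm is lowest in every panel, at 5.56 peaks per Mb in replicate 1, 3.26 in replicate 2 and 13 in the combined list.

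Counts along the chromosome placed the sparse stretch more closely. In 1 Mb bins the 20 full bins of V held from 10 to 37 combined peaks, with a median of 22. The first 5 bins held 13, 17, 10, 12 and 13 peaks, and none of them reached that median. The other 15 full bins held 13 to 37, with a median of 23. The bin from 10 to 11 Mb was the fullest, with 37 combined peaks, 17 in replicate 1 and 10 in replicate 2. The bin from 2 to 3 Mb was the emptiest, with 10 combined peaks and 2 in each replicate list. The bin from 1 to 2 Mb stood apart within the left arm, with 17 combined peaks, 12 in replicate 1 and 6 in replicate 2, and 6 of its combined peaks were found in both replicates.

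The right arm was uneven rather than sparse throughout. Its inner stretch held 16 combined peaks from 16 to 17 Mb and 13 from 17 to 18 Mb. Its outer stretch held 23 peaks from 18 to 19 Mb, 32 from 19 to 20 Mb and 26 in the last 0.862 Mb. In bins of 5% of the length, the lowest value on V was 6.71 peaks per Mb at 80% to 85% from the left end, and the last bin, at 95% to 100%, had 33.6. Density was therefore low toward the left end of V but not toward its right end.

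**Figure D2:**
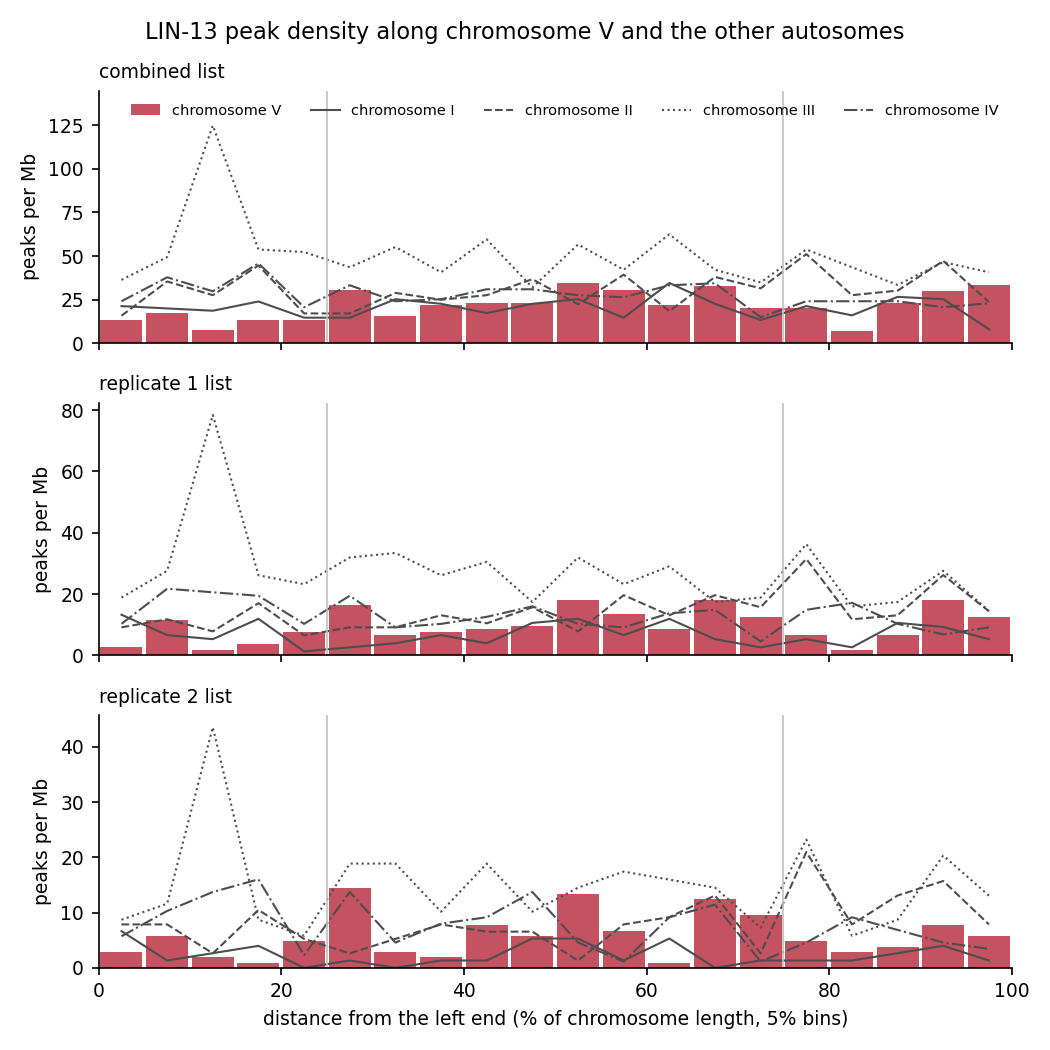
Peaks per Mb (y axis) in bins of 5% of chromosome length from the left end (x axis), for the combined, replicate 1 and replicate 2 lists. Red bars are chromosome V, grey lines are chromosomes I to IV, and vertical lines mark the borders of the arms. The first 5 bars of V lie between 7.67 and 17.3 peaks per Mb in the combined list, and the bar at 80% to 85% is at 6.71.

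The sparse arm had long stretches without any peak. A gap is counted here as the bases between 2 neighbouring combined peaks. The longest gap on V ran 621 kb in the left arm, from V:2694725-3315354, and only 1 autosomal gap, of 629 kb on chromosome II, was longer. The longest of the right arm, V:16965974-17549321, ran 583 kb and came next among the autosomes. The next on V were in the left arm, with 473 kb at V:2127428-2600620, 374 kb at V:349423-723805 and 328 kb at V:1476742-1804938. None of these 5 gaps held a whole replicate 1 or replicate 2 peak. The longest gap in the centre, V:12004756-12291616, ran 287 kb and also held no whole peak of either replicate list. Of the 10 longest autosomal gaps 5 were on V, and 4 of those were in its left arm. Of the 20 longest, 8 were on V and 5 of those in its left arm. For comparison, V had 450 gaps in all and I to IV had 1939, over 20.9 and 61.6 Mb. The left arm of V had 67 gaps.

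Long gaps took up most of the left arm of V. It had 16 gaps of 100 kb or longer. Each gap was placed whole by its midpoint, so a share can count bases beyond the border of a zone. The summed length of these gaps was 72.9% of that of the arm, against 37.7% for the left arms of I to IV together. Taken singly, those left arms had 41.1% on I, 55.8% on II, 18.0% on III and 34.5% on IV. The values were 61.0% in the right arm of V against 36.0% in the other right arms, and 46.6% in the centre of V against 39.4% in the other centres. The median gap was 38.5 kb in the left arm of V and 8.08 kb in the other left arms together. Taken singly, the left arm of I had 33.6 kb, close to V. Those of II, III and IV had 6.61, 3.93 and 12.4 kb. In the right arm the median gap was 15.0 kb on V and 14.7 kb elsewhere, and in the centre 15.8 kb on V and 12.3 kb elsewhere. The right arm of V thus had a median gap like that of other right arms beside 18 gaps of 100 kb or longer. Fewer peaks give longer gaps, and the densities above apply to each of these values. Mean spacing is the length of a zone divided by its peaks. The longest gap was 8.09 times the mean spacing in the left arm of V, and 13.2 times in its right arm. In the left arms of I, II, III and IV it was 4.19, 17.6, 16.1 and 6.64 times. For its density the longest gap of the left arm of V was thus inside the range of the other left arms.

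**Figure D3:**
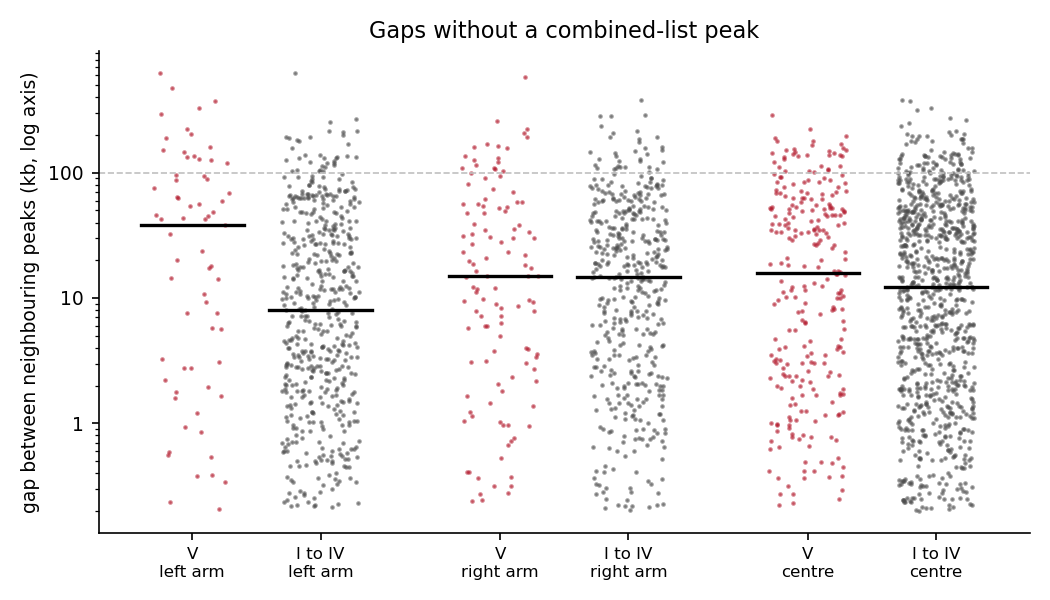
Length of each gap between neighbouring combined peaks (y axis, kb, log axis) in the left arm, right arm and centre, for chromosome V and for chromosomes I to IV (x axis). Each point is 1 gap, black lines are medians and the dashed line marks 100 kb. The median of the left arm of V, 38.5 kb, stands above that of the other left arms together, 8.08 kb. The left arm of chromosome I alone, not drawn apart, had a median of 33.6 kb.

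Even so, the peaks of chromosome V were grouped. Peaks were put in 1 cluster where fewer than 5 kb lay between the end of one and the start of the next. On V 249 of 451 peaks were in such clusters, or 55.2% (50.6% to 59.7%), against 59.1% (56.9% to 61.3%) on chromosomes I to IV and 55.5% over all chromosomes. The share on V is near that background, which includes the denser chromosome III with 69.5%. On V the share was 48.5% (37.1% to 60.2%) in the left arm, 50.0% (41.1% to 58.9%) in the right arm and 59.2% (53.2% to 65.0%) in the centre. Chromosome I, with nearly the same density, had 41.7% (36.3% to 47.3%). That interval lies below the one of V here, while in each replicate list the intervals of V and I overlap. The left arm of V, sparse as it was, had a share above the 40.5% of the left arm of chromosome I, at 13 against 19.6 peaks per Mb, and the difference is within the intervals. The 96 clusters of V were mostly small, with 62 pairs and 34 clusters of 3 or more peaks. Neighbouring peaks on V were at least 208 bp apart in the combined list, 205 bp in replicate 1 and 216 bp in replicate 2.

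The largest cluster on V was made up of moderate peaks rather than strong ones. It held 7 peaks in 15559 bp at V:13649843-13665401 in the centre, and its −log10 q did not exceed 12.1 in the combined list. Replicate 1 had 5 peaks there, up to 6.16, and replicate 2 had 2, up to 6.15. The next, with 6 peaks in 12481 bp at V:19880781-19893261 in the right arm, reached 8.23 in the combined list and held no peak of either replicate. Its peaks were narrow, from 189 to 400 bp. A cluster of 5 peaks at V:14347210-14358927 reached 12.7, and both replicates had 3 peaks in it, up to 8.07 in replicate 1 and 6.86 in replicate 2. The 5 peaks at V:7913270-7924665 included 2 of only 26 and 34 bp, and replicate 1 had 3 peaks there and replicate 2 none. The last of the 5 largest, V:13041712-13049385, reached 6.77 and had 1 replicate 1 peak. All 5 were outside the left arm. The largest clusters of the left arm had 4 peaks, and the one at V:1151109-1158677 reached a −log10 q of 39.6, with all 4 peaks in replicate 1 and 3 in replicate 2.

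Clustered peaks on V were stronger, wider and more often found again than single ones. Their median −log10 q was 6.55, against 5.28 for the 202 single peaks, and their median width was 586 bp against 398 bp. Of the clustered peaks 25.7% (20.7% to 31.5%) were in both replicates, against 13.9% (9.77% to 19.3%) of the single peaks. The same order held on chromosomes I to IV, with 24.1% (21.7% to 26.7%) of clustered and 17.8% (15.3% to 20.6%) of single peaks. The overlap of clustered and single peaks was not compared at equal strength. Whether the gap between clustered and single peaks is larger on V was not tested.

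Peaks on V had a median width of 477 bp (439 to 512) and covered 293 kb, or 1.41% of the chromosome. On chromosomes I to IV the median was 456 bp (443 to 474) and the cover 1.92%. The medians of the zones of V were 470 bp (392 to 710) in the left arm, 416 bp (372 to 510) in the right arm and 493 bp (465 to 540) in the centre, and these intervals overlap. The cover was 0.981% of the left arm, 1.22% of the right arm and 1.71% of the centre. In the left arm the few peaks that were present were often broad. There 18 of 68 were 1 kb or wider, or 26.5% (17.4% to 38%), against 8.57% (6.48% to 11.2%) of peaks in the left arms of I to IV. The left arm of chromosome I alone had 17.6% (10.6% to 27.8%), an interval that overlaps that of V. The share was 10.2% (5.91% to 16.9%) in the right arm of V and 14.3% (10.6% to 19.1%) in its centre. In the replicate 1 list it was 31.0% (17.3% to 49.2%), with 9 of 29 left-arm peaks, but in the replicate 2 list only 1 of 17 left-arm peaks reached 1 kb, or 5.88% (1.05% to 27.0%). Of the 18 broad peaks 11 lay in the first 2 Mb, 13 overlapped a replicate 1 peak, 8 a replicate 2 peak and 7 both. These 18 peaks fell into 14 units, counting each cluster or single peak as 1 unit. For comparison, the first 2 bins of 1 Mb held 13 and 17 of the 68 left-arm peaks. Of all 68, 26 overlapped a replicate 1 peak, 17 a replicate 2 peak and 14 both. The broad peaks had a median −log10 q of 10.9, against 5.96 for all left-arm peaks. Their overlap was not compared at equal strength.

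Strength differed little between the zones. The median −log10 q on V was 5.78 (5.42 to 6.24), with 5.96 (4.98 to 7.44) in the left arm, 5.50 (4.83 to 6.36) in the right arm and 5.95 (5.42 to 6.43) in the centre. On chromosomes I to IV it was 6.10 (5.91 to 6.31). Among the autosomal peaks of the 500 strongest in the combined list, V held 61 of 425, or 14.4% (11.3% to 18.0%), against 18.8% of all autosomal peaks (17.3% to 20.5%). Of these 61, 9 were in the left arm, 15 in the right arm and 37 in the centre. Broad peaks tended to be strong ones on V, with a Spearman correlation of 0.601 between width and −log10 q over the 451 peaks, and 0.556 over the 1943 peaks of I to IV. Both values come from the same reads, and peaks are not independent.

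Strong peaks were mostly found again on every side of the comparison. In the strongest 10% of the combined list, 31 of 33 peaks of V and 187 of 203 of I to IV were in both replicates. The 10 strongest regions of V lay in all 3 zones, and all 10 were found in both replicates. The first, V:6220746-6230121, is a region of 9376 bp in the centre and its −log10 q was 119 in the combined list, 33.3 in the replicate 1 list and 19.2 in the replicate 2 list. It was also the widest on V, and the replicates split it into 3 and 4 peaks. The second, V:14685089-14689108, reached 99.9 in the combined list and had the largest replicate values on V, 54.6 in replicate 1 and 50.2 in replicate 2. After these a step down followed, to 49.2 at V:9342919-9344929, which gave 34.7 in the replicate 1 list and 16.1 in the replicate 2 list.

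The left arm gave 2 of the 10. The region V:723806-728335, 4530 bp wide, follows directly after the gap of 374 kb. It reached 48.8 in the combined list, against 25.5 and 25.9 in replicates 1 and 2. The region V:1151109-1152036 reached 39.6 in the combined list, against 23.0 and 19.4 in replicates 1 and 2. Next in that arm was V:5049304-5050452, which ranked 13 on V, and its replicate values of 17.7 and 17.9 were nearly equal.

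The right arm gave 3 of the 10, all in its denser outer stretch. The region V:20157604-20158856 reached 36.6 in the combined list, against 23.7 and 16.4 in replicates 1 and 2. The region V:18967359-18967986, of 628 bp and with no neighbour within 5 kb, reached 35.2 in the combined list, against 22.7 and 15.2 in replicates 1 and 2. At V:19049034-19051725 the replicates differed in the other direction, since replicate 1 had 3 peaks of up to 9.47 and replicate 2 a single peak of 18.7. The remaining 2 of the 10 were in the centre. V:9730783-9732997 reached 41.2 in the combined list, against 17.8 and 13.6 in replicates 1 and 2. V:8936014-8940090, 4077 bp wide and among the 3 widest on V, reached 35.8 in the combined list, against 13.8 and 6.32 in replicates 1 and 2.

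At the other extreme, 3 peaks of V were narrower than 100 bp. They measured 16 bp at V:20123124-20123139, 26 bp at V:7913270-7913295 and 34 bp at V:7919532-7919565. Their −log10 q was between 3.70 and 4.14, and neither replicate list had a peak at any of them.

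Of the 451 peaks of V, 187 overlapped a replicate 1 peak by at least 1 bp, or 41.5% (37.0% to 46.1%), against 44.7% over all chromosomes. In replicate 2 they were 113, or 25.1% (21.3% to 29.3%), against 25.2% over all chromosomes. In both replicates there were 92, or 20.4% (16.9% to 24.4%), against 21.8%. These shares are near the background. Another 95 peaks overlapped replicate 1 alone, or 21.1%, against 22.9% over all chromosomes. Those in replicate 2 alone were 21, or 4.66%, against 3.43%. In neither list were 243, or 53.9% (49.3% to 58.4%), against 51.8%, so this share too is near the background. Peaks in both replicates had a median −log10 q of 12.4 and a median width of 759 bp, and those in neither had 4.52 and 390 bp. The sources used here do not say how the combined list was put together, and it is not independent of the replicates.

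The shares of peaks found again in the arms and centre of V had overlapping intervals. In both replicates were 14 of 68 left-arm peaks, or 20.6% (12.7% to 31.6%), 22 of 118 right-arm peaks, or 18.6% (12.6% to 26.6%), and 56 of 265 peaks of the centre, or 21.1% (16.6% to 26.4%). In replicate 1 the shares were 38.2% (27.6% to 50.1%) in the left arm, 36.4% (28.3% to 45.4%) in the right arm and 44.5% (38.7% to 50.5%) in the centre. Neither replicate had 57.4% of left-arm peaks (45.5% to 68.4%), 60.2% of right-arm peaks (51.2% to 68.5%) and 50.2% of peaks of the centre (44.2% to 56.2%), and these intervals overlap. Over all chromosomes the shares in neither were 51.5% in left arms, 52.6% in right arms and 51.6% in centres. With the peaks found in both replicates alone, the density was 2.68 per Mb in the left arm, 4.22 in the right arm and 5.37 in the centre, which is the same order of the zones. The ratio of left to right arm among these peaks was 0.636 (0.301 to 1.30), an interval that includes 1. The left arm of chromosome I had 2.65 such peaks per Mb, close to the 2.68 of V.

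Support was also compared at equal strength, by cutting the ranked combined list into 10 strength groups of about the same size. In the strongest group all 33 peaks of V were in replicate 1 and 93.9% (80.4% to 98.3%) in replicate 2. The widest difference in replicate 2 was in the third group, picked here after it was seen, where 57.1% (42.2% to 70.9%) of 42 peaks of V overlapped a replicate 2 peak, against 36.2% (30.0% to 43.0%) of 207 on chromosomes I to IV. Without chromosome I the second share was 43.1% (35.8% to 50.7%), and its interval overlaps that of V. In replicate 1 the same group gave 69.0% (54.0% to 80.9%) on V against 78.7% (72.7% to 83.8%). Had the peaks of I to IV the strengths of those on V, 40.8% would be in replicate 1 and 20.9% in replicate 2, against 41.5% and 25.1% measured on V. Chromosome I, with 11.4% (8.31% to 15.4%) of its 307 peaks in replicate 2, is among these. With II, III and IV alone the shares were 43.3% and 23.4%, and both lie within the intervals of V.

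**Figure D4:**
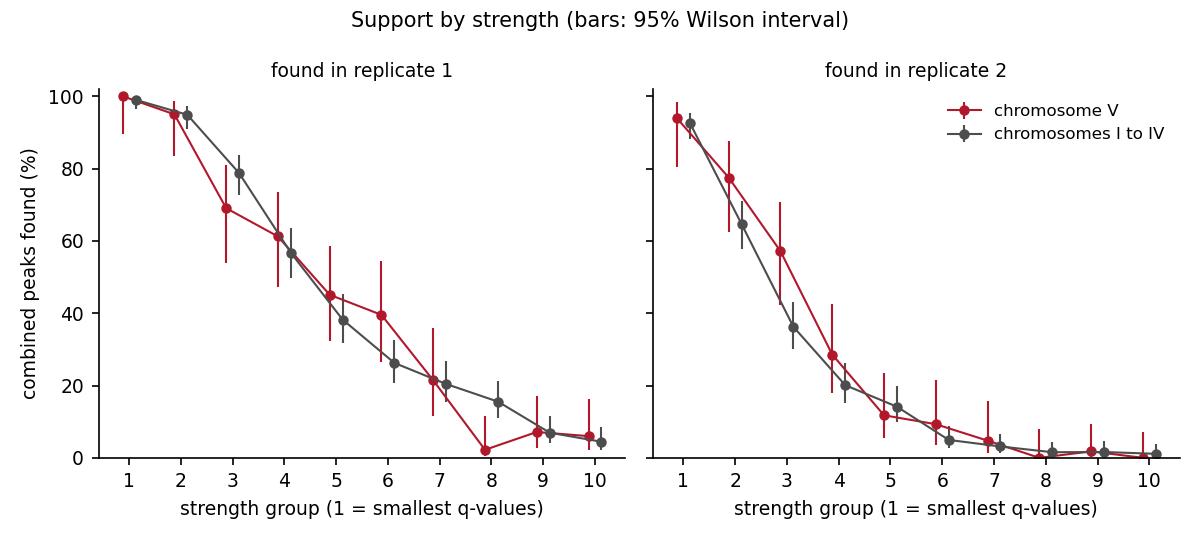
Percent of combined peaks that overlap a replicate 1 peak (left) or a replicate 2 peak (right), on the y axis, by strength group from the smallest to the largest q-values, on the x axis. Red is chromosome V, grey chromosomes I to IV, and bars are 95% Wilson intervals. In group 3 V is at 57.1% in replicate 2 and I to IV are at 36.2%, and in groups 8 to 10 both are below 20% in both replicates.

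Between the replicate lists themselves, 97 of 122 replicate 2 peaks on V overlapped a replicate 1 peak, or 79.5% (71.5% to 85.7%), against 86.9% (83.7% to 89.6%) on I to IV. In the other direction 97 of 202 did, or 48.0% (41.2% to 54.9%), against 46.5% (43.3% to 49.8%). The 92 regions of V in both replicates had a median strength of 7.07 (−log10 q) in replicate 1 and 5.70 in replicate 2, against 12.4 in the combined list. Replicate 1 had the larger value in 68 of them, and the combined list exceeded both replicates in all 92. Across these 92 regions the Spearman correlation of the replicates was 0.600, a description over regions that share 2 libraries. Depth is unknown, so the level of one list against another cannot be read as binding.

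**Figure D5:**
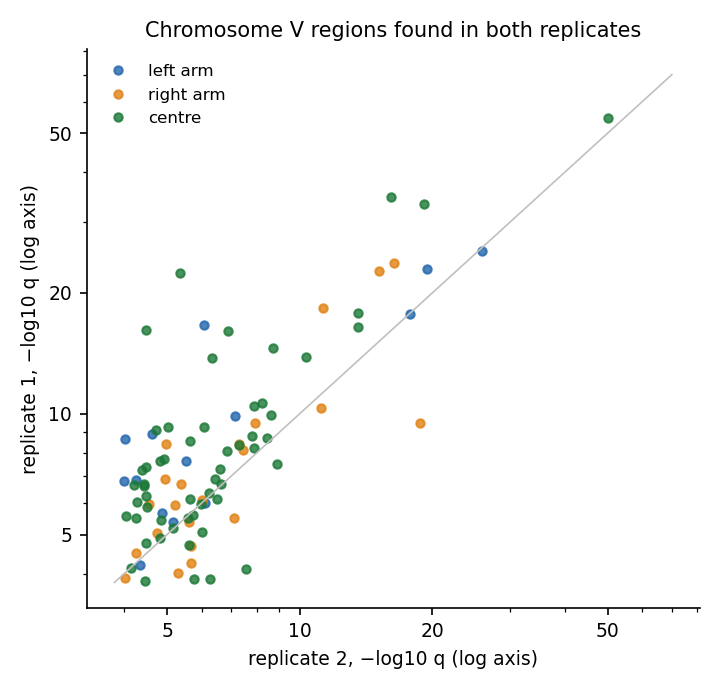
Strength in replicate 1 (y axis, −log10 q, log axis) against replicate 2 (x axis, −log10 q, log axis) for the 92 regions of chromosome V found in both, taking the strongest overlapping peak of each list. Colours mark the left arm, the right arm and the centre, and the line marks equal values. Replicate 1 is larger in 68 of the 92 regions.

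Of the replicate peaks of V, 5 of 202 in replicate 1 and 4 of 122 in replicate 2 were missing from the combined list. The share over all chromosomes was not computed, so these counts show no trait of V. The strongest missing peaks were V:14013458-14013928 of replicate 1, at a −log10 q of 5.07, and V:10729488-10729903 of replicate 2, at 4.82. The other 4 of replicate 1 had 4.01 to 4.24, and the other 3 of replicate 2 had 4.27 to 4.54.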

How the data were processed

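ChIP-seq of LIN-13::EGFP was made from L4 worms crosslinked with 2% formaldehyde, per the labels' protocols. The authors called peaks with PeakSeq on WormBase WS180, per the file headers and source column. The deposited measurement is a q-value per peak, and it was converted to −log10 q. The aligner, filters, caller version and making of the combined list were not given in the sources used here. Titles gave the groups, since the description fields call the ChIP samples input DNA. Input values were not used.

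Counts, overlaps, clusters and gaps were computed with Python 3.11.15, numpy 2.4.6, pandas 2.3.3, scipy 1.17.1 and matplotlib 3.10.9. Overlap counts on V equalled those of bedtools 2.31.1, and the functions were tested on simulated peaks. A peak was placed by its midpoint. Shares have Wilson intervals, densities exact Poisson intervals, density ratios exact conditional (Clopper-Pearson) intervals, ratios of such ratios Wald intervals on the log scale and medians binomial order-statistic intervals. The peaks, zones and comparisons were chosen with earlier results of these data known.

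Regions named are the 10 strongest on V, the 3 strongest per zone, the 3 widest, those under 100 bp, the 5 clusters with most peaks, the 5 longest gaps and the longest per zone, the fullest and emptiest bins, and the replicate peaks missing from the combined list. Other bins, the largest left-arm clusters and the broad peaks of the left arm were chosen after their values were seen, as were the comparison of density ratios between V and the other autosomes and the third strength group.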

Additional observations from a re-analysis of the deposited data

How the results depend on the processing

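Of 43 alternatives over 8 results, 28 stayed within the interval of the value reported and 15 moved outside it, with no reversal. Some of the 28 left the value unchanged and so say little. With the span from first to last peak the ratio of arms to centre stayed at 0.702 and that of left to right arm at 0.576. An overlap of 50% of the shorter peak left the shares in replicate 1, replicate 2 and both unchanged. Dropping peaks narrower than 100 bp left the median width at 477 bp. V had 0.825 times the density of the other autosomes without chromosome III, and 0.645 to 0.723 times in the single replicate lists. The ratio of arms to centre on V was 0.544 to 0.616 in the single replicate lists. The ratio of left to right arm stayed within its interval in all 7 alternatives, from 0.576 to 0.700, but its own interval included 1 in the replicate 2 list (0.333 to 1.25) and among peaks in both replicates (0.301 to 1.30). The median width was 643 bp in the stronger 50% of the combined list and 759 bp among peaks in both replicates. The share of peaks in clusters was 39.2% with 2 kb, 65.6% with 10 kb, 43.7% in the stronger 50%, and 35.2% to 42.1% in the single replicate lists. Shares in replicate 1, replicate 2 and both were 33.9%, 20.0% and 14.4% with centres within 200 bp, and 71.2%, 49.3% and 41.9% in the stronger 50%. These alternatives take fewer or shorter lists, or another distance, by their construction. Added after the data were seen, the share of broad peaks in the left arm was 48.5% in the stronger 50% and 5.88% to 31.0% in the single replicate lists. No paired analysis was possible because the result comes from no test and the input samples have no values used here. Unknown depth limits what a weak peak missing from a replicate list shows.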
